A study of Mus musculus with 6 samples.

Results

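The insulin-like growth factor (IGF) axis was read in primary articular chondrocytes, which are the cells of joint cartilage, through 10 genes: the ligand genes Igf1 and Igf2, the receptor gene Igf1r, and the binding protein genes Igfbp1 to Igfbp7. Members were chosen by gene symbol, and all 10 were found among the 24346 symbols of the deposited table. Of the 10, 9 averaged 1 FPKM or more across the 6 libraries and were tested. FPKM counts sequenced fragments relative to transcript length and library size. The exception was Igfbp1, which was listed at 0 in every library. There were 3 libraries of cells stimulated with semaphorin 4D (Sema4D) and 3 of unstimulated control cells. All came from cartilage of ICR mice at postnatal day 4, and no other genotype or treatment is given. Sema4D is a ligand of plexin-B receptors that is known from axon guidance and bone. The dose, the duration and the number of animals or cultures behind the replicates are not stated, so the p-values below reflect the spread among 6 libraries and that spread may be technical.

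IGF1 and IGF2 bind the receptor tyrosine kinase IGF1R, which signals through insulin receptor substrates to PI3-kinase and AKT and through SHC and GRB2 to the MAP kinases. Secreted binding proteins hold the ligands in the matrix and the circulation, and either keep them from the receptor or release them when proteases cut the binding protein. IGF1 is known as a main stimulus of proteoglycan synthesis in cartilage, and IGF2 as an imprinted growth factor of fetal and newborn tissue. IGFBP7 binds IGFs with low affinity, whereas the others bind them tightly.

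Column sums were 518901 to 527492 FPKM in Sema4D and 492708 to 494123 FPKM in control libraries. The step size of low FPKM values put the depth at 1.5e+07 to 1.79e+07 fragments in Sema4D and 1.35e+07 to 1.73e+07 in control libraries. Of 10 chondrocyte markers, 10 were detected, and their summed level was 12264 to 13226 FPKM in Sema4D and 15417 to 16544 FPKM in control libraries. All 10 were lower with Sema4D by limma, an empirical Bayes linear model fitted here to log2(FPKM + 1) with Benjamini-Hochberg adjustment over 11603 tested genes and a call at adjusted p below 0.05. Col2a1, the collagen gene that makes up most of that sum, lost its call after quantile normalization (-0.07, adjusted p = 0.459) and when low values were kept in (adjusted p = 0.774). Of 8 fibroblast markers 2 were higher and 3 lower, with summed levels of 8078 to 8419 FPKM in Sema4D and 8621 to 9203 FPKM in control libraries. Sums of 9 macrophage and leukocyte markers were 23.9 to 27.5 FPKM in Sema4D and 25.3 to 32.5 FPKM in control libraries, most of it Lyz2. Of the 4 tested, Cd14 was higher (3.95 ± 0.45 FPKM in Sema4D and 1.84 ± 0.24 FPKM in control libraries), Lyz2 and Tyrobp were lower, and Cd68 did not pass. Of the 5 under the filter, Adgre1 lay higher without overlap, at 0.673 ± 0.098 FPKM in Sema4D and 0.203 ± 0.108 FPKM in control libraries. Fcer1g did too, at 1.15 ± 0.42 FPKM in Sema4D and 0.234 ± 0.27 FPKM in control libraries, while Ptprc, Csf1r and Aif1 overlapped. Of 5 adipocyte and hepatic markers only Fabp4 was tested. It was higher, at 26.4 ± 2.57 FPKM in Sema4D and 10.4 ± 1.61 FPKM in control libraries. Under the filter, Adipoq went the other way without overlap, at 0.364 ± 0.153 FPKM in Sema4D and 0.81 ± 0.116 FPKM in control libraries. Plin1 and Apoa1 overlapped, and Alb was listed at 0. Of 3 tested superficial zone markers, Erg (5.70 ± 0.11 FPKM in Sema4D and 11.3 ± 0.25 FPKM in control libraries) and Cd55 were lower and Prg4 did not pass. Clic5, under the filter, lay higher without overlap, at 0.184 ± 0.065 FPKM in Sema4D and 0.0767 ± 0.010 FPKM in control libraries. Has1, also under the filter, overlapped. Sums of 6 endothelial markers were 0.215 to 0.39 FPKM in Sema4D and 0.151 to 0.254 FPKM in control libraries. The part of these cell types in the results below was not tested. In bulk RNA, fewer cells of a type and less RNA per cell cannot be told apart. Across all tested genes 46.7% were called, 24.5% higher and 22.2% lower, and the groups did not overlap for 56.6%.

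Of the 9 tested members, 3 were higher with Sema4D (Igf1r, Igfbp3 and Igfbp7) and 5 were lower (Igf1, Igf2, Igfbp4, Igfbp5 and Igfbp6). Igfbp2 did not pass the threshold. The groups did not overlap for 8 of the 9, all but Igfbp2. The median log2 fold change was -0.18 over the 9 members and 0.01 over all tested genes, and the median absolute change was 0.51 over the members and 0.15 over all tested genes. Those medians describe the members only and are no test of them. By the ratio of mean FPKM only Igfbp3 changed by over 2-fold, and Igf1 came next.

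**Figure D1:**
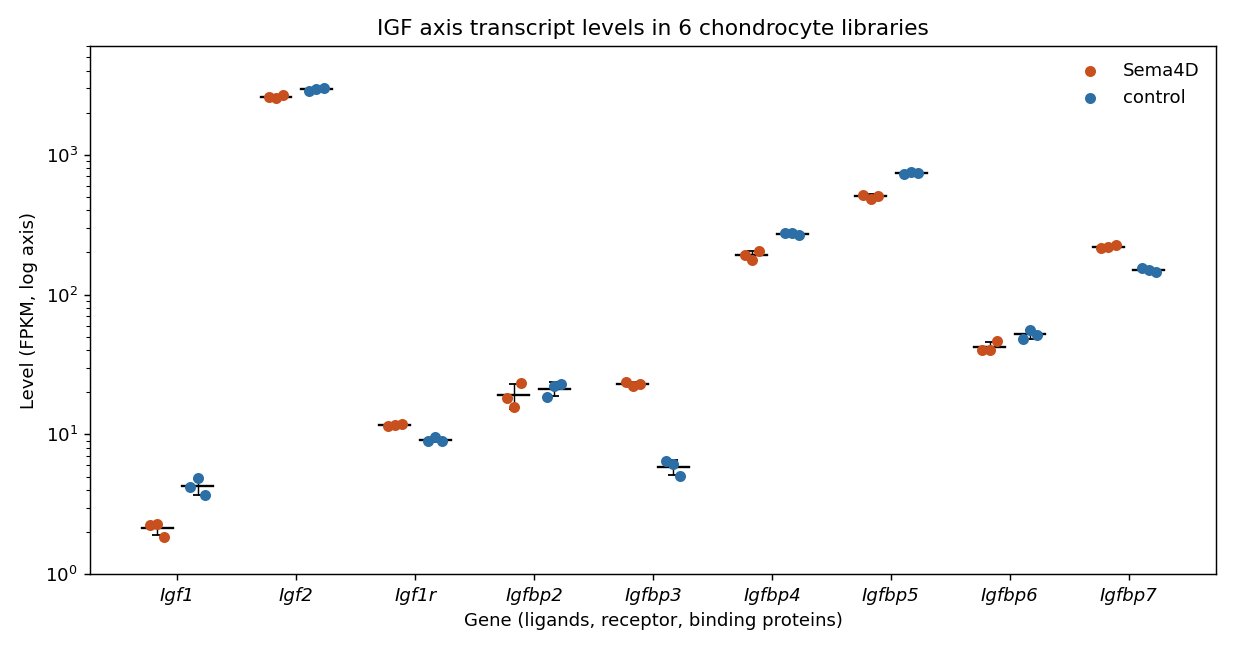
Level of the 9 detected members in FPKM on a log axis, 1 point per library, with the mean as a horizontal bar and the SD as an error bar (n = 3 per group, Sema4D left of control for each gene). The groups overlap for Igfbp2 only, Igf2 is the highest in every library, and Igfbp3 shows the widest gap.

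The ligand genes stood far apart in level. Igf2 had 2589, 2553 and 2660 FPKM in Sema4D libraries 1 to 3, against 2868, 2935 and 3008 FPKM in control libraries 1 to 3. Every Sema4D library lay below every control library, although the gap between the groups was small beside the level. Igf2 ranked 16th of all 24346 symbols by mean FPKM in Sema4D and 13th in control libraries. It fell by 11.5% by the ratio of mean FPKM (log2 fold change -0.18, SE 0.029, limma adjusted p = 0.00126), and 2107 genes called lower had a larger fall. A filter on low values leaves the fold as it is, but with no filter the SE was 0.060 and the call was lost (limma adjusted p = 0.135).

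Igf1 had 2.26, 2.27 and 1.86 FPKM in Sema4D libraries, against 4.21, 4.85 and 3.69 FPKM in control libraries. The highest Sema4D library was below the lowest control library. Igf1 fell by 49.9% by the ratio of means (2.13 ± 0.234 FPKM in Sema4D and 4.25 ± 0.581 FPKM in control libraries, SD, n = 3 each). Its log2 fold change was -0.74 (SE 0.096, limma adjusted p = 0.000319), and the pseudocount of 1 shrinks it, since it was -0.96 with a pseudocount of 0.1. Taking the longest GENCODE transcript as its length, the values amount to about 200 to 280 fragments in Sema4D and 400 to 590 in control libraries. The log2 ratio of Igf2 to Igf1 was 10.26 ± 0.19 in Sema4D and 9.44 ± 0.22 in control libraries (SD, n = 3 each), without overlap (two-sided exact permutation p = 0.1, the smallest that 3 libraries against 3 allow). In these cells Igf2 was thus the main IGF ligand transcript in both groups.

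Igf1r, the receptor through which both ligands signal, had 11.4, 11.7 and 11.8 FPKM in Sema4D libraries, against 8.93, 9.53 and 8.95 FPKM in control libraries. It rose in all 3 Sema4D libraries relative to every control library, by 27.6% in the ratio of means (log2 fold change 0.32, SE 0.043, limma adjusted p = 0.000407). The gene was therefore higher while its less abundant ligand Igf1 was lower, and the log2 ratio of Igf1 to Igf1r was -2.46 ± 0.18 in Sema4D and -1.11 ± 0.15 in control libraries (SD, n = 3 each; exact permutation p = 0.1).

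Igfbp3, the main IGF carrier of serum, showed the largest change among the members. It had 23.7, 22.2 and 23.1 FPKM in Sema4D libraries, against 6.46, 6.10 and 5.01 FPKM in control libraries. The 3 Sema4D libraries lay close together and far above all controls. Igfbp3 rose 3.92-fold by the ratio of means (log2 fold change 1.81, SE 0.077, limma adjusted p = 3.76e-07), and 147 genes called higher had a larger rise on the log2 scale. Igfbp7, a matrix-bound relative with low affinity for IGFs, had 215, 217 and 227 FPKM in Sema4D libraries, against 156, 150 and 146 FPKM in control libraries. It rose 1.46-fold, again without overlap (log2 fold change 0.54, SE 0.035, limma adjusted p = 4.77e-06).

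Igfbp5, which binds matrix and is abundant in connective tissue, was the most abundant binding protein transcript in both groups. It had 520, 486 and 506 FPKM in Sema4D libraries, against 727, 755 and 746 FPKM in control libraries. It fell by 32.2% (log2 fold change -0.56, SE 0.031, limma adjusted p = 2e-06), and the groups were far from overlapping. Igfbp4, the binding protein cut by the protease PAPP-A, had 193, 177 and 205 FPKM in Sema4D libraries, against 275, 276 and 266 FPKM in control libraries. All Sema4D libraries were below all control libraries, and Igfbp4 fell by 29.7% (log2 fold change -0.51, SE 0.050, limma adjusted p = 6.44e-05).

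Igfbp6, which prefers IGF2 over IGF1, had 40, 39.9 and 46.4 FPKM in Sema4D libraries, against 47.9, 55.8 and 51.8 FPKM in control libraries. The nearest libraries of the groups were Sema4D replicate 3 and control replicate 1, which almost met. Igfbp6 fell by 18.8% (log2 fold change -0.29, SE 0.071, limma adjusted p = 0.00958), and with no filter the same fold had an SE of 0.087 and the call was lost (limma adjusted p = 0.0942). Igfbp2 had 18.3, 15.7 and 23.3 FPKM in Sema4D libraries, against 18.4, 22.3 and 22.9 FPKM in control libraries. Its Sema4D libraries spanned the control range, with a coefficient of variation of 20.4% against 11.4% in control libraries. Its log2 fold change was -0.16 (SE 0.134, limma adjusted p = 0.372), without Sema4D replicate 3 it was -0.30 (adjusted p = 0.0476), and without Sema4D replicate 2 it was -0.03 (adjusted p = 0.864). Igfbp1, a binding protein best known from liver, was listed at 0 in all 6 libraries, and no fold is given.

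**Figure D2:**
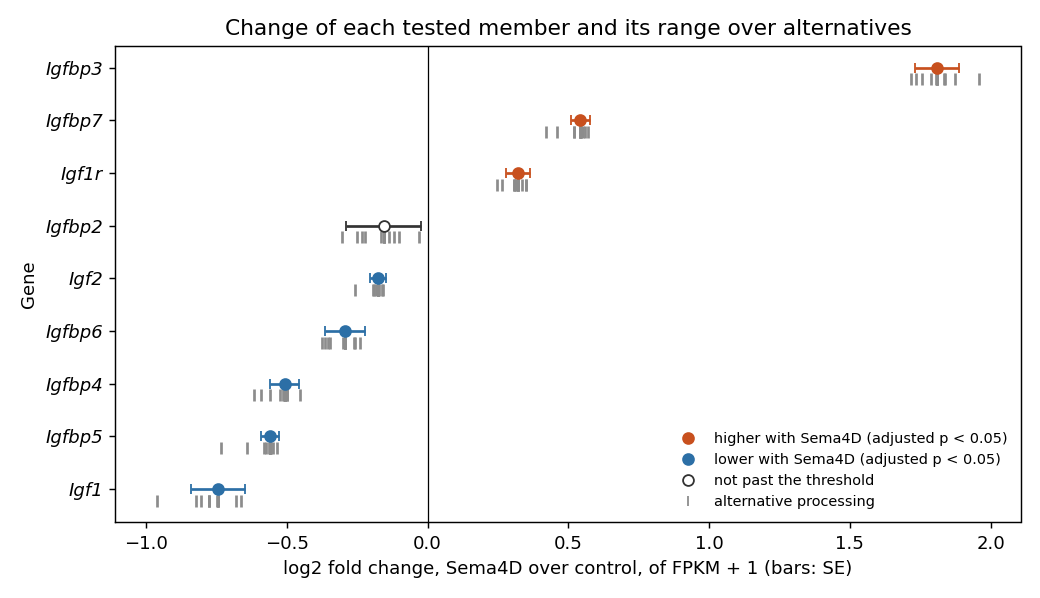
Log2 fold change of FPKM + 1, Sema4D over control, for the 9 tested members, with the SE as a bar and the values under the alternative settings as grey ticks below each point. No tick crosses 0, Igfbp3 stands apart at 1.81, and the open point of Igfbp2 marks the member that did not pass the threshold.

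The order of levels in control libraries was Igf2, Igfbp5, Igfbp4, Igfbp7, Igfbp6, Igfbp2, Igf1r, Igfbp3 and Igf1, each with all 3 libraries above those of the next. In Sema4D libraries it was Igf2, Igfbp5, Igfbp7, Igfbp4, Igfbp6, Igfbp3, Igfbp2, Igf1r and Igf1, and Igfbp3 and Igfbp2 did not differ beyond their spread. Thus Igfbp7 stood above Igfbp4 in every Sema4D library, against below it in every control library. Igfbp3 stood above Igf1r in every Sema4D library, against below it in every control library.

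Summed over Igfbp1 to Igfbp7, binding protein transcripts came to 1009, 958 and 1031 FPKM in Sema4D libraries, against 1231, 1265 and 1237 FPKM in control libraries. The sum was lower in each Sema4D library, by 19.7% on average (exact permutation p = 0.1). Without the low-affinity Igfbp7 it was 779 ± 33.9 FPKM in Sema4D and 1094 ± 20.0 FPKM in control libraries (SD, n = 3 each), lower by 28.7% (exact permutation p = 0.1). Igfbp5 made up 50.4 ± 1.24% of the sum in Sema4D and 59.7 ± 0.63% in control libraries, and Igfbp4 19.1 ± 0.71% in Sema4D and 21.9 ± 0.44% in control libraries. Igfbp7 made up 22 ± 0.71% in Sema4D and 12.1 ± 0.50% in control libraries, and Igfbp3 2.3 ± 0.056% in Sema4D and 0.471 ± 0.061% in control libraries. The groups did not overlap for any of these 4 shares (exact permutation p = 0.1, or 0.15 adjusted over 6 shares). The shares of Igfbp6 (4.21 ± 0.27% in Sema4D and 4.16 ± 0.26% in control libraries, exact p = 0.8) and Igfbp2 (1.91 ± 0.32% in Sema4D and 1.7 ± 0.18% in control libraries, exact p = 0.5) overlapped. Within the sum without Igfbp7, the share of Igfbp4 differed by -0.348 percentage points and overlapped (exact p = 0.5), and that of Igfbp5 by -3.23 without overlap (exact p = 0.1). The shares of Igfbp2 and Igfbp6 were then higher with Sema4D by 0.504 and 0.666 percentage points, without overlap (exact p = 0.1 each).

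Ligand transcripts, Igf1 plus Igf2, exceeded the binding protein sum in every library. Their log2 ratio to the sum was 1.36, 1.42 and 1.37 in Sema4D libraries, against 1.22, 1.22 and 1.28 in control libraries. Each Sema4D ratio was above each control ratio, by 0.14 on average (exact permutation p = 0.1). With Igfbp7 left out of the sum the difference was 0.31. These are ratios of transcripts per length, and protein was not measured.

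**Figure D3:**
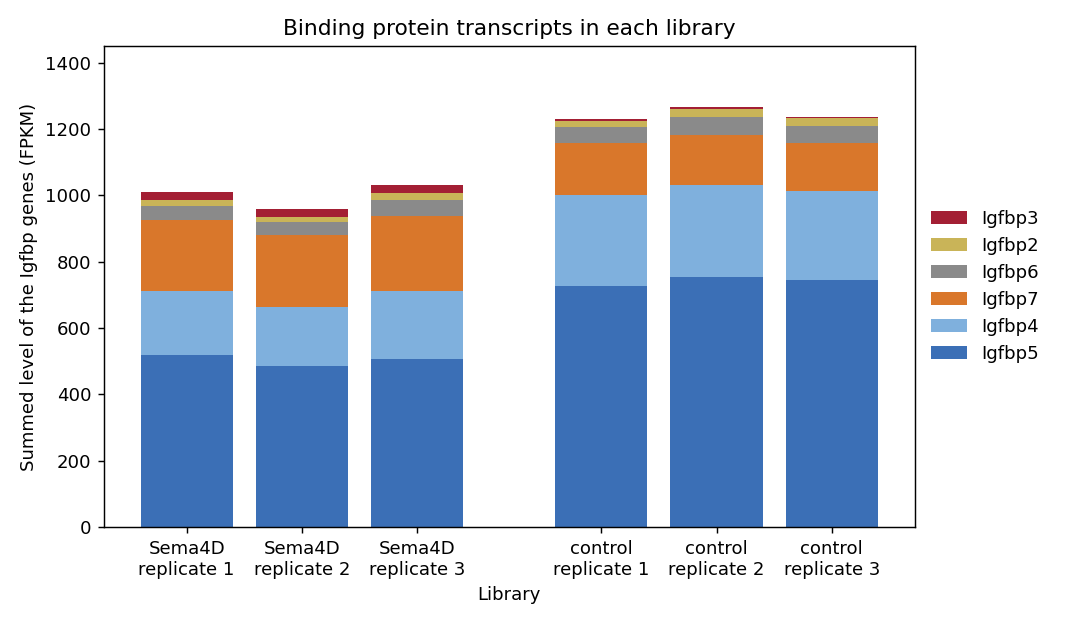
Summed FPKM of the 6 detected Igfbp genes in each library, split by gene, with Sema4D libraries left of control libraries. The bars reach 958 to 1031 FPKM in Sema4D and 1231 to 1265 FPKM in control libraries, with a smaller Igfbp5 block and larger Igfbp7 and Igfbp3 blocks in Sema4D libraries.

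Several members are neighbours in the genome. In RefSeq on GRCm38.p6, the assembly of mm10, Igfbp2 (chromosome 1, 72824480 to 72852474, plus strand) and Igfbp5 (72858065 to 72874865, minus strand) point toward each other across 5590 bases. On chromosome 11, Igfbp1 (7197787 to 7202546, plus strand) and Igfbp3 (7206086 to 7215498, minus strand) do the same across 3539 bases. Of these neighbours, Igfbp5 fell while Igfbp2 did not pass the threshold, and Igfbp3 rose while Igfbp1 was listed at 0 in every library. Whether the changes of Igfbp2 and Igfbp5 differ was not tested. Igfbp4 lies on chromosome 11 (99040005 to 99052655), Igfbp6 on chromosome 15 (102144186 to 102149512) and Igfbp7 on chromosome 5 (77349240 to 77408045). Igf1 lies on chromosome 10 (87858265 to 87937047), and Igf2 (142650768 to 142666816) and Igf1r (67952257 to 68233668) on chromosome 7. The strand setting of the counting was not given in the sources used here. Igf2 shares 98 exonic bases with its antisense gene Igf2os, which was at 2.34 to 2.69 FPKM in Sema4D and 3.28 to 3.67 FPKM in control libraries, and 3596 exonic bases with Gm49394 on its own strand. Igfbp7 shares 85 exonic bases with Polr2b on the other strand, which was at 18.3 to 19.2 FPKM in Sema4D and 18.8 to 19.4 FPKM in control libraries. Reads from the overlap with Gm49394, which is not among the listed symbols, cannot be told apart. For Igf2os and Polr2b, on the other strand, that depends on the strand setting.

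The promoters of the 4 binding protein genes whose share of the full sum did not overlap between groups are shown, so that rising and falling genes can be set side by side. Each is the 250 bases before a transcription start that RefSeq gives on GRCm38.p6, on the gene's own strand, 5′ to 3′. For Igfbp3 and Igfbp4 that start lies inside the RefSeq span given above. The bases before the outer end of that span were not searched for these genes. Capitals mark letters matched by the 6 motifs searched on both strands. They were the NF-kappaB consensus, the C/EBP motif TTNNGNAA, the AP-1 motif TGANTCA, the FOXO motif GTAAACA, the TATA box TATAAA and the GC box GGGCGG. Where matches overlap, their letters are capitalised together.
Igfbp3, which rose (chr11:7213924-7214173, minus strand): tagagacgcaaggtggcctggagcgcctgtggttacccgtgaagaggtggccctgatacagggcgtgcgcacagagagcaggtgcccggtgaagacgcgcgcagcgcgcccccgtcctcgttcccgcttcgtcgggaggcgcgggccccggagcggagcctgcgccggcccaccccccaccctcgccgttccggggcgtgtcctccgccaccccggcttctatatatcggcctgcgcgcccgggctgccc
Igfbp7, which rose (chr5:77408046-77408295, minus strand): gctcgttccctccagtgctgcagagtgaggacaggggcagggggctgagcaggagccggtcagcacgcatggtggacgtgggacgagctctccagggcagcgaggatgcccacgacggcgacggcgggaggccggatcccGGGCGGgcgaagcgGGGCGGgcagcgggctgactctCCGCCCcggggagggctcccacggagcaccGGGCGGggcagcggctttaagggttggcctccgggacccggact
Igfbp5, which fell (chr1:72874866-72875115, minus strand): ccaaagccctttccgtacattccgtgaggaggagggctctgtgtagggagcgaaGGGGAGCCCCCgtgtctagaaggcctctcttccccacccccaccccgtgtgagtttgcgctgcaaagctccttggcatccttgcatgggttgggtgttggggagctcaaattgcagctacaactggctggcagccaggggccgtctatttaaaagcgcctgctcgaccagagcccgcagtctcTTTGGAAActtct
Igfbp4, which fell (chr11:99040994-99041243, plus strand): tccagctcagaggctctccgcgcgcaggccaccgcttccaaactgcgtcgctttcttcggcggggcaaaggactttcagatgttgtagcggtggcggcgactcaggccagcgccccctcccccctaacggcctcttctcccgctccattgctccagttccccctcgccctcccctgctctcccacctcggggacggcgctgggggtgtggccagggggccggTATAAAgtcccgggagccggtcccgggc

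The windows of the rising Igfbp3 and Igfbp7 were 73.2% and 74.0% G and C with 32 and 26 CpG sites, and those of the falling Igfbp5 and Igfbp4 were 58.8% and 69.2% with 10 and 22 CpG sites. The median over 32851 promoters of the same length was 52.4% and 6 CpG sites. Igfbp7 held 4 GC boxes, a motif found in 32.7% of these promoters, and Igfbp4 a TATA box 28 bases before the start, found in 12.4%. Igfbp5 held overlapping matches to the NF-kappaB consensus starting 196 bases before the start, found in 7.25% of promoters, and a C/EBP match 13 bases before it, found in 36.8%. The Igfbp3 window held none of the 6 motifs. Among the other members, an AP-1 match, found in 6.75% of promoters, lay 37 bases before a start of Igf1 inside its RefSeq span. Another lay 39 bases before one of the starts of Igfbp2. GTAAACA, found in 3.17%, lay in none of the members' windows. All 10 members had a promoter in the RefSeq table, and Igf2 and Igfbp2 had several. A match is a description of letters and not a binding site.

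The proteases and inhibitors that govern binding protein cleavage moved in both directions. Of 22 listed genes 16 were tested, of which 7 were higher, 5 lower and 4 not past the threshold, against the 46.7% called overall. Stc2, the stanniocalcin that blocks PAPP-A, had 37.5, 39.1 and 38.8 FPKM in Sema4D libraries, against 21.4, 25.3 and 23.6 FPKM in control libraries. It rose 1.64-fold without overlap (log2 fold change 0.70, SE 0.057, limma adjusted p = 2.02e-05). Pappa itself, the protease that cuts IGFBP4, was at 9.43 ± 0.093 FPKM in Sema4D and 9.68 ± 0.34 FPKM in control libraries (limma adjusted p = 0.545). Its relative Pappa2, which cuts IGFBP3 and IGFBP5, was under the filter at 0.18 to 0.218 FPKM in Sema4D and 0.238 to 0.298 FPKM in control libraries, and Stc1, the other stanniocalcin, did not pass (-0.08, adjusted p = 0.393).

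Mmp3, a matrix protease that also cuts IGFBP3, rose to 1165 ± 16.7 FPKM in Sema4D, against 0.412 ± 0.067 FPKM in control libraries. The complement protease genes C1s1 and C1ra rose 6.22-fold and 3.06-fold by the ratio of means. C1s1 was at 69.5 ± 2.34 FPKM in Sema4D and 11.2 ± 0.531 FPKM in control libraries. In human fibroblasts C1s is known to cut IGFBP5. Among the falls, Htra3 of the HtrA serine proteases was at 14.1 ± 0.51 FPKM in Sema4D and 26.5 ± 0.52 FPKM in control libraries (log2 fold change -0.86, SE 0.039). Adam12, a metalloprotease that cuts IGFBP3 and IGFBP5, also fell (-0.55), as did Plat (-0.36) and Htra1 (-0.16), while Adamts1 did not pass (-0.03, limma adjusted p = 0.551) except with equal column sums, where it was lower (-0.11, adjusted p = 0.0423).

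Of 11 listed other receptors and binding partners 5 were tested, of which 0 were higher and 2 lower, against 24.5% higher and 22.2% lower among all tested genes. With no filter on low values, or without Sema4D replicate 2, 1 was higher. Esm1, a secreted proteoglycan gene singled out after its values were seen, was under the filter at 1.39 to 1.76 FPKM in Sema4D and 0.0302 to 0.0944 FPKM in control libraries, without overlap. Igf2r, which clears IGF2 by taking it to lysosomes, fell by 8.49% (107 ± 1.38 FPKM in Sema4D and 117 ± 1.46 FPKM in control libraries, log2 fold change -0.13, SE 0.026, limma adjusted p = 0.00422). Kazald1, a secreted relative of the binding proteins, had 4.18, 5.15 and 5.01 FPKM in Sema4D libraries, against 9.5, 10.5 and 11.3 FPKM in control libraries. It fell by more than Igf1 on the log2 scale (-0.98, SE 0.083, limma adjusted p = 2.39e-05). The pseudocount of 1 enters into that gap, and with a pseudocount of 0.1 the values were -1.11 for Kazald1 and -0.96 for Igf1. The insulin receptor gene Insr was at 7.88 ± 0.12 FPKM in Sema4D and 7.81 ± 0.18 FPKM in control libraries (limma adjusted p = 0.834). Igfals, which encodes the acid-labile subunit of the serum complex, was at 0.878 to 1.66 FPKM in Sema4D and 0.856 to 1 FPKM in control libraries. Its log2 fold change was 0.23 (limma adjusted p = 0.191), and without Sema4D replicate 2 it was 0.37 and called higher (adjusted p = 0.0212). Both insulin genes were listed at 0 in all libraries.

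Of 22 tested genes of the signal downstream of IGF1R, 6 were higher, 6 lower and 10 not past the threshold, near the shares of 24.5% higher and 22.2% lower among all tested genes. The substrate genes Irs1 and Irs2, which couple the receptor to PI3-kinase, fell by 25.5% and 29.9%. Irs1 had 14.4, 14 and 15.3 FPKM in Sema4D libraries, against 19.4, 19.2 and 20 FPKM in control libraries (log2 fold change -0.40, SE 0.042, limma adjusted p = 9.63e-05). Akt2 (-0.36) and the PI3-kinase regulatory subunit gene Pik3r2 (-0.40) also fell. The regulatory subunit gene Pik3r1 rose 1.49-fold (28 ± 0.303 FPKM in Sema4D and 18.8 ± 1.26 FPKM in control libraries), and the adaptor gene Shc1 (0.22) and Gsk3b (0.25), a kinase that AKT inhibits, rose less. With a mean of at least 5 FPKM the falls were 3 of 18 tested genes.

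Among brakes on the pathway, 4 of 14 tested genes were higher and 6 lower, against 24.5% higher and 22.2% lower among all tested genes. Grb14, whose adaptor protein inhibits insulin receptor signalling, had 46.8, 45.1 and 45.1 FPKM in Sema4D libraries, against 14.8, 13.7 and 15 FPKM in control libraries. It rose 3.15-fold without overlap (log2 fold change 1.59, SE 0.042, limma adjusted p = 2.15e-08). Socs3, which marks insulin receptor substrates for degradation and is induced by cytokines, rose 3.1-fold (18.5 ± 0.98 FPKM in Sema4D and 5.98 ± 0.83 FPKM in control libraries). Ptpn1, a phosphatase of the insulin receptor, rose 1.79-fold. The imprinted adaptor gene Grb10 fell by 20.2% (154 ± 1.64 FPKM in Sema4D and 193 ± 1.47 FPKM in control libraries), and Trib3 (-0.23) and the mTOR inhibitor gene Deptor (-0.25) fell as well. With a mean of at least 5 FPKM the falls were 3 of 11 tested genes.

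AKT keeps FOXO transcription factors out of the nucleus, so FOXO genes and known FOXO-activated genes were counted as well. Of 13 tested genes 3 were higher, 7 lower and 3 not past the threshold, where 24.5% of all tested genes were higher and 22.2% lower. Foxo3 rose 1.56-fold (18.6 ± 0.57 FPKM in Sema4D and 12 ± 0.67 FPKM in control libraries), whereas Foxo1 (-0.26) and Foxo4 (-0.20) were called lower. Foxo6, under the filter, was lower without overlap, at 0.122 ± 0.079 FPKM in Sema4D and 0.694 ± 0.11 FPKM in control libraries. The stress gene Gadd45a (0.63) and the cyclin G2 gene Ccng2 (0.50) rose. The sestrin genes Sesn1 (-0.79) and Sesn3 (-0.52) and the cell cycle inhibitor gene Cdkn1b (-0.37) fell. In the growth hormone arm, which drives Igf1 in liver, 2 of 5 tested genes were higher and 1 lower. The higher ones were the kinase gene Jak2 (0.30) and Stat5a (0.24). Ghr, the growth hormone receptor gene, was at 26.5 ± 0.82 FPKM in Sema4D and 28 ± 1.89 FPKM in control libraries (-0.07, limma adjusted p = 0.276), and it was called lower without control replicate 3 (-0.13, adjusted p = 0.0431) and after quantile normalization or scaling to equal sums. Socs2, a feedback inhibitor of that receptor, fell by 0.33 on the log2 scale (adjusted p = 0.0199), but leaving out Sema4D replicate 2 gave an adjusted p of 0.0559, Sema4D replicate 3 0.0598, control replicate 1 0.0665, control replicate 2 0.0604 and the filter 0.0992.

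Imprinted genes, which are expressed from 1 parental allele and form a growth network with Igf2, fell in 9 of 12 tested cases and rose in none, against 22.2% lower among all tested genes. H19, the non-coding neighbour of Igf2 that shares its enhancers, lies 72.6 kilobases from it on the same strand and is expressed from the maternal allele. It had 2483, 2406 and 2457 FPKM in Sema4D libraries, against 3699, 3916 and 3889 FPKM in control libraries. H19 fell by 36.2% without overlap (log2 fold change -0.65, SE 0.030, limma adjusted p = 6.35e-07). The log2 ratio of Igf2 to H19 was 0.09 ± 0.03 in Sema4D and -0.38 ± 0.03 in control libraries (SD, n = 3 each; exact permutation p = 0.1), so that Igf2 lay above H19 in each Sema4D library and below it in each control library. Peg3 fell by 43.9% (109 ± 1.41 FPKM in Sema4D and 195 ± 3.47 FPKM in control libraries). Plagl1, a transcription factor that activates Igf2, fell by 30.6% (108 ± 2.01 FPKM in Sema4D and 156 ± 2.59 FPKM in control libraries). Grb10 and Igf2r, given above, belong to this list too.

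Of the IGF2 mRNA-binding protein genes, Igf2bp2 (0.24) and Igf2bp3 (0.15) rose and Igf2bp1 did not pass the threshold. The call of Igf2bp3 (limma adjusted p = 0.022) was lost without control replicate 2 (0.0729) or 3 (0.0543), without Sema4D replicate 1 (0.0801), after quantile normalization (0.068) and with equal column sums (0.169). Of 11 tested integrins and matrix partners of the binding proteins, 4 were higher, 2 lower and 5 not past the threshold, near the 46.7% called among all tested genes. Spp1, the osteopontin gene, rose 1.96-fold (211 ± 6.38 FPKM in Sema4D and 107 ± 3.75 FPKM in control libraries). Lrp1, an endocytic receptor that binds IGFBP3, rose 1.34-fold, and the integrin gene Itgav 1.33-fold. Tgfbr2 (-0.41) and the caveolin gene Cav1 (-0.50) fell, and with equal column sums 4 of this list fell.

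**Figure D4:**
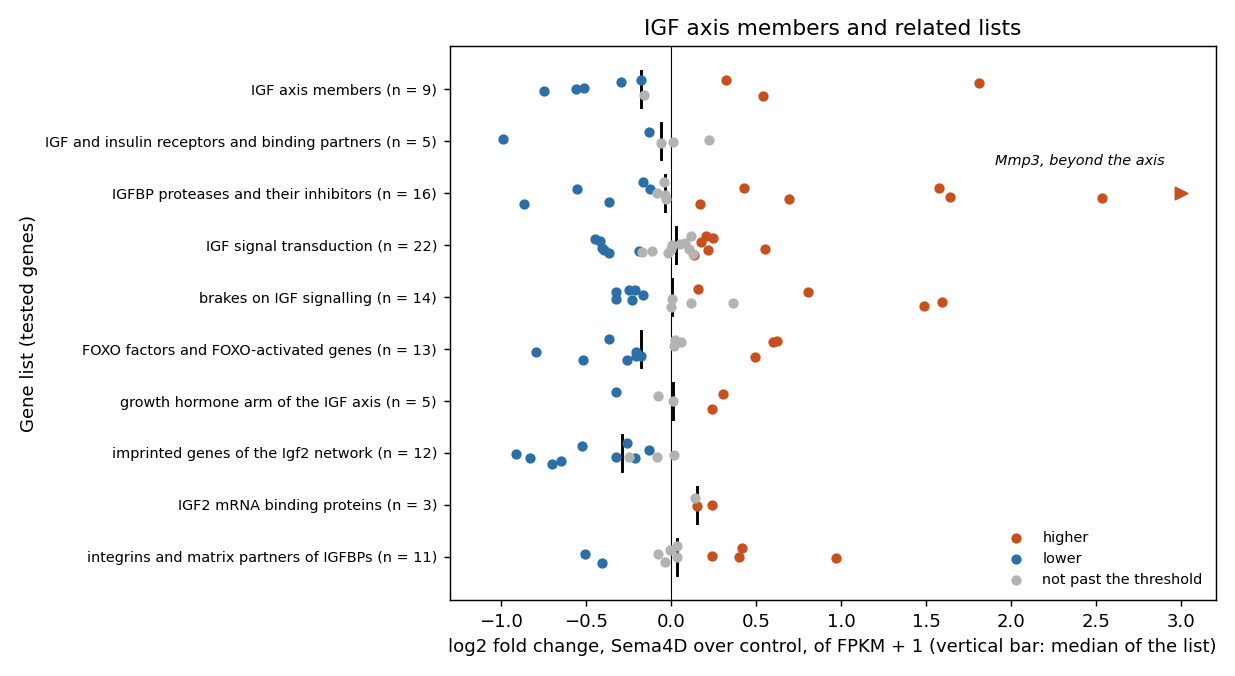
Log2 fold change of FPKM + 1, Sema4D over control, for each tested gene of the IGF axis and of 9 related lists, coloured by limma call, with the median of each list as a vertical bar. The triangle marks Mmp3, which at 9.69 lies beyond the axis, and no imprinted gene is called higher.

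Among the genes whose pattern over the 6 libraries was most like that of Igfbp3 were Tiparp (Pearson's r = 0.9997 of log2(FPKM + 1)) and Slc45a4 (0.9995). Their deviations from the group means correlated at 0.988 and 0.973 with those of Igfbp3. For Igf1, the member that fell most, they were Ngly1 (0.996), Lrpap1 (0.996) and Ttc8 (0.995), with correlations of deviations of 0.952, 0.959 and 0.956. In all, 434 tested genes had an r over 0.99 with Igfbp3 and 10 with Igf1, so the values are a description of 6 libraries that fall into 2 treatment groups. The named genes were picked by r over those same libraries. High correlations of deviations follow from that choice and are no added support.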

How the data were processed

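The authors' deposited table gives FPKM for 24346 gene symbols, 1 column per library, with 0 columns outside the series. TopHat2 2.0.13, Bowtie2 2.2.3, SAMtools 0.1.19, Cufflinks 2.2.1 and build mm10 are named, with no role or order, per the submitters' processing notes. The annotation, strand setting and scaling are not given in the sources used here, but median ratio factors were 1.00 for each column. Since FPKM values are not counts, tests for counts were left out.

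Genes averaging 1 FPKM or more were tested with limma 3.58.1 (trend, two-sided) in R 4.3.3 on log2(FPKM + 1), where folds of low genes are understated. The fit was tested on simulated data. Sums, shares and ratios were compared by exact permutation in scipy 1.17.1 under Python 3.11.15. Depth came from low FPKM values among 1690 single-transcript genes, 189 to 212 values per library. At the depth with the best agreement, 81.5% to 87.6% of these values lay within 0.15 of a whole fragment, too few to recover counts. The depth was chosen by that agreement, so the share is no check on it. Members and lists were chosen with earlier results of these data known. Text names all members, up to 3 called genes per list and direction, taken by p, and a set fixed by name (not all given here), and the 3 genes most like each of Igfbp3 and Igf1, of which 1 is not reported here. Igf2bp1, Igf2os, Polr2b, Gm49394, Esm1, Foxo1, Foxo4, Foxo6 and markers other than Col2a1 were named after their values were seen. Of the symbols, 23140 matched RefSeq. Alternatives were another pseudocount, filter or scaling, a replicate block, and each library left out.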

Additional observations from a re-analysis of the deposited data

How the results depend on the processing

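Changing the filter or adding a block leaves the fold of a member as it is, so only its call can change there. Under the other 10 alternatives (another pseudocount, 3 scalings and 6 libraries left out) the direction held for all 9 tested members. A mean of at least 5 FPKM removes Igf1. The call was lost for Igf2 and Igfbp6 with no filter on low values, where 3 members were lower in place of 5, and Igfbp2 was gained without Sema4D replicate 3. The labels do not say that the replicate numbers mark a shared culture, litter or day, so the numbers were not taken as pairs. Deviations from group means correlated at 0.14, -0.08 and -0.05 between libraries numbered 1, 2 and 3. A replicate block left 3 members higher and 5 lower and gave 2638 higher and 2356 lower genes against 2841 and 2581 without it. With balanced groups it cannot move mean differences, which stayed at -0.32 for the log2 binding protein sum, 0.14 for the ligand ratio and 0.20, 1.83, -2.73, -9.25, 0.0482 and 9.91 percentage points for the shares of Igfbp2 to Igfbp7. Of the calls 52.4% were higher, against 38.8% after quantile normalization and 34.5% with equal column sums, which moved the median of all genes from 0.01 to -0.05 and -0.07. With equal column sums the log2 change of the binding protein sum was -0.40 in place of -0.32. With Igfbp7 left out it was -0.49, the ligand ratio differed by 0.31, and the shares of Igfbp2 to Igfbp6 differed by 0.504, 2.41, -0.348, -3.23 and 0.666 percentage points. The share of Igfbp6, 0.0482 higher with Sema4D, ranged from -0.0956 to 0.173 with a library left out. Insr, at 0.01, was at -0.025 after quantile normalization and -0.061 with equal column sums, and ranged from -0.00094 to 0.028 with a library left out. Causes were not tested. Depth limits Igfbp1 and Pappa2, where 1 fragment on 1 kilobase was worth 0.056 to 0.0742 FPKM.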
